A study of Homo sapiens and Mus musculus with 12 samples.

Results

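The report concerns 10 glycosyltransferase genes of the colon epithelium, taken by symbol from the mouse colon table: Fut2, Fut4, B4galnt1, B4galnt2, St3gal4, St6gal1, B3gnt6, B3gnt7, C1galt1 and Gcnt3. Their Entrez gene identifiers in the table are, in that order, 14344, 14345, 14421, 14422, 20443, 20440, 272411, 227327, 94192 and 72077. All 10 were found among the 17383 genes listed, and all 10 had a mean of at least 1 FPKM (a fragment count scaled by transcript length and library size), the minimum for testing, as did 11366 genes in all. RNA of colon tissue was sequenced from C57BL/6J mice aged 12 weeks, with 3 libraries from Zfp280c knock-out and 3 from wild-type animals. The labels give no further allele, no sex and no segment of the colon, and do not say whether each library came from 1 animal, so p-values measure the spread between these libraries only. The series also holds RKO cell libraries, which were not used here.

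Colon mucins carry dense O-linked sugar chains. Chains start with GalNAc on serine or threonine and are built on different cores: C1galt1 makes core 1, B3gnt6 makes core 3, and Gcnt3 adds the branch that turns these into core 2 and core 4. B3gnt7 adds GlcNAc to galactose during chain extension. Other enzymes cap sugar chains, on mucins or on other carriers, and which chains they acted on was not measured here. Fut2 adds the fucose of the H antigen, and Fut4 adds the fucose of Lewis x type structures. St3gal4 and St6gal1 add sialic acid in different linkages. B4galnt2 adds GalNAc to a sialylated galactose to form the Sda antigen. B4galnt1 also adds GalNAc, but to gangliosides, which are lipids. In rodents, Fut2 and B4galnt2 are known to shape the glycans that gut bacteria meet.

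C1galt1 varied least over the 6 libraries, 1.22-fold from lowest to highest, followed by Fut2 (1.51-fold), St3gal4 (1.91-fold) and St6gal1 (2.42-fold). The other 6 enzymes spanned 4.98-fold to 52.5-fold. In those 6, wild-type replicates 1 and 3 lay together on 1 side of the other 4 libraries. B3gnt7 and Fut4 were high in wild-type replicates 1 and 3. B4galnt2, B4galnt1, Gcnt3 and B3gnt6 were low there. In limma, a moderated linear model on log2(FPKM + 1), 0 of the 10 genes and 0 of 11366 genes differed between genotypes at a Benjamini-Hochberg adjusted p under 0.05 (0% of genes tested). Counted at an unadjusted p under 0.05 were 4 of the 10 and 1420 of all genes (12.5%).

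Several measures of the libraries moved with this pattern. Hoxb6, a proximal gene of the HOX family that marks position along the gut, stood at 18.2, 8.91 and 17.6 FPKM in the knock-outs and at 0.65, 18.2 and 0.20 in wild-type replicates 1, 2 and 3. A position score, the mean log2 level of 3 proximal HOX genes minus that of 5 distal ones, was 2.68, 1.28 and 1.78 in the knock-outs and -2.43, 1.88 and -4.42 in wild-type replicates 1, 2 and 3. The summed level of 12 epithelial markers was 15110 to 16612 FPKM in the knock-outs and 13685 to 16325 in the wild-types, and none of these markers was at 0. Their mean log2 level was 9.33 and 9.10 in wild-type replicates 1 and 3 and 9.48 to 9.58 in the other 4 libraries. Single markers differed. Cdx2 was lower in those 2 libraries (81.2 and 33.3 FPKM against 140 to 155), as was Krt20 (1001 and 604 against 1315 to 1720). Cdh1 was higher there (319 and 313 against 262 to 288). The 7 goblet cell markers did not move as 1 group. Their sum was 3711 to 7154 FPKM in the knock-outs and 8536 to 11215 in the wild-types, without overlap, as in Zg16, Tff3 and Clca1, while the groups overlap in Muc2, Spdef, Agr2 and Fcgbp. B and plasma cell markers, 6 in all, summed to 5.57 to 15.8 against 7.94 to 34.4 FPKM. Fabp2, an absorptive cell gene, stood at 932, 1210 and 881 FPKM in the knock-outs and at 254, 1026 and 17.0 in wild-type replicates 1, 2 and 3. It made up most of the summed level of 5 absorptive markers of the small intestine, with 17.0 of 22.9 FPKM in wild-type replicate 3. Fabp6 of that list stood at 55.6, 5.03 and 13.7 FPKM in the knock-outs and 4.38, 11.9 and 5.8 in the wild-types. Lct and Apoa4 were at most 0.16 FPKM in each library. Smooth muscle markers, 6 in all, summed to 355 and 403 FPKM in wild-type replicates 1 and 3 and to 461 to 739 in the knock-outs, with 577 in wild-type replicate 2. The 4 T and NK cell markers also summed to less in those 2 libraries, 8.22 and 4.86 FPKM against 11.4 to 16.8 in the knock-outs and 13.0 in wild-type replicate 2. Cd2 of that list did not follow, at 1.49 and 1.1 FPKM in those 2 libraries against 0.59 to 1.77 in the others. The 4 endothelial markers summed to more in wild-type replicates 1 and 3, 5.13 and 4.72 FPKM against 1.90 to 3.25 in the knock-outs and 2.74 in wild-type replicate 2. Emcn did not follow in wild-type replicate 3, at 0.88 against 0.92 FPKM in knock-out replicate 3. Cdh5 and Kdr were at most 0.5 FPKM in each library. The 4 adipocyte markers summed to 17.6 to 59.4 against 1.89 to 9.87 FPKM, without overlap. The part of these in the results below was not tested. In bulk tissue, fewer cells of a type and less RNA per cell cannot be told apart. Zfp280c itself was at 0.09 to 0.22 FPKM in the knock-outs and 2.25 to 3.17 in the wild-types. Its log2 fold change of -1.67 ± 0.14 also did not pass (adjusted p = 0.123, limma). In this fit, not passing therefore does not show that a gene was unchanged.

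**Figure D1:**
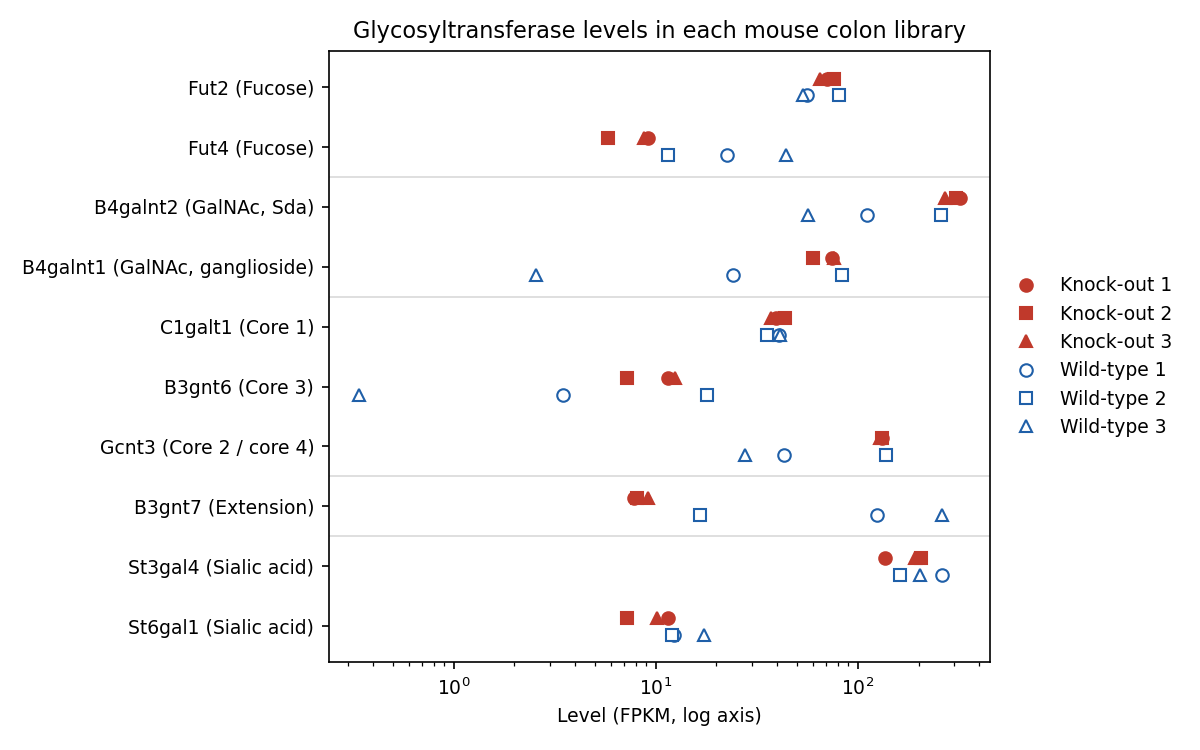
Level of each enzyme in each library, in FPKM on a log axis; filled red symbols are the 3 knock-out libraries, open blue symbols the 3 wild-type libraries, and grey lines separate the steps. C1galt1 sits between 35.7 and 43.4 in all 6 libraries, while B3gnt7 runs from 7.79 to 260 and B3gnt6 from 0.34 to 17.9.

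Of the fucosyltransferases, Fut2 was the more abundant and Fut4 the more variable. Fut2 stood at 70.5, 76.5 and 64.7 FPKM in knock-out replicates 1, 2 and 3 and at 56.3, 80.7 and 53.6 in the wild-type replicates. The groups overlap, since wild-type replicate 2 was the highest of all 6 libraries. The log2 fold change was 0.17 ± 0.17 (SE, adjusted p = 0.650, limma). Fut4 stood at 9.21, 5.82 and 8.74 FPKM in the knock-outs and at 22.5, 11.5 and 44.0 in the wild-types, so all 3 knock-out libraries lay below all 3 wild-type libraries. Its mean was 7.92 ± 1.84 against 26.0 ± 16.5 FPKM (SD, n = 3 each), and its log2 fold change of -1.43 ± 0.45 did not pass (adjusted p = 0.396, limma). The exact permutation p was 0.1, the smallest that 3 against 3 libraries allow. Fut4 is also a gene of neutrophils, whose defining markers S100a8 and S100a9 were at most 0.15 FPKM in each library. The 4 neutrophil markers together summed to 3.06 to 3.59 FPKM in the knock-outs and 2.98 to 3.65 in the wild-types, most of it Cxcr2 (2.4 to 3.11 FPKM over the 6 libraries). The part of neutrophils in the Fut4 level was not tested.

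B4galnt2, the Sda enzyme, had the highest median of the 10, 264 FPKM. It stood at 322, 305 and 271 FPKM in the knock-outs and at 111, 257 and 56.9 in wild-type replicates 1, 2 and 3. The groups do not overlap, but wild-type replicate 2 was only just below the lowest knock-out library. The means were 299 ± 25.9 and 142 ± 104 FPKM (SD, n = 3 each), a ratio of 2.11. The log2 fold change, 1.34 ± 0.49, did not pass (adjusted p = 0.396, limma; exact permutation p = 0.1).

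B4galnt1, the ganglioside enzyme, spread more widely than B4galnt2. It stood at 74.7, 60.3 and 76.7 FPKM in the knock-outs and at 24.2, 83.8 and 2.57 in the wild-types. The groups overlap, with the highest and the lowest library both wild-type, and a 32.6-fold distance between those. The log2 fold change was 1.85 ± 1.04 (adjusted p = 0.451, limma). Nerve cells also make gangliosides, and 6 markers of enteric neurons and glia summed to 9.61 to 16.9 FPKM in the knock-outs and 7.70 to 15.6 in the wild-types, a part that was not tested.

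Among the core enzymes, C1galt1 had the narrowest range. It stood at 39.4, 43.4 and 37.2 FPKM in the knock-outs and at 40.8, 35.7 and 41.1 in the wild-types, and had rank 6 of the 10 enzymes in each library. Its log2 fold change was 0.03 ± 0.10 (adjusted p = 0.908, limma). Its log2 range was larger than that of 21.4% of genes tested, against 67.1% to 99.7% for the other enzymes.

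Gcnt3, the core 2 and core 4 branching enzyme, stood at 132, 132 and 129 FPKM in the knock-outs and at 43.0, 137 and 27.6 in the wild-types. The knock-out libraries were within 1.02-fold of each other, a spread wider than in only 1.68% of genes tested. Wild-type replicate 2 was above them and the other wild-types far below, so the groups overlap (log2 fold change 1.24 ± 0.53, adjusted p = 0.396, limma). B3gnt6, the core 3 enzyme, was present at lower levels of 11.5, 7.25 and 12.5 FPKM in the knock-outs and 3.47, 17.9 and 0.34 in the wild-types. The groups overlap here too, and wild-type replicate 2 was the highest library (log2 fold change 1.21 ± 0.88, adjusted p = 0.552, limma). Adding 0.1 in place of 1 FPKM before taking logs gave 1.75 for this low gene.

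B3gnt7, the extension enzyme, showed the widest range on the log2 scale of the 10. It stood at 7.79, 8.07 and 9.17 FPKM in the knock-outs and at 124, 16.7 and 260 in wild-type replicates 1, 2 and 3. All knock-out libraries lay below all wild-type ones, wild-type replicate 2 being 2.0 times the knock-out mean. The means were 8.34 ± 0.73 and 134 ± 122 FPKM (SD, n = 3 each), so the knock-outs had 6.24% of the wild-type mean. The log2 fold change was -3.16 ± 0.91 (adjusted p = 0.396, limma; exact permutation p = 0.1).

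The sialyltransferases varied least after C1galt1 and Fut2. St3gal4 stood at 137, 206 and 193 FPKM in the knock-outs and at 261, 162 and 203 in the wild-types. The groups overlap, and St3gal4 was the only enzyme for which wild-type replicate 2 lay inside the knock-out range, which held for 50.9% of all genes tested (log2 fold change -0.22 ± 0.22, adjusted p = 0.658, limma). St6gal1, which B cells also express, stood at 11.5, 7.18 and 10.2 FPKM in the knock-outs and at 12.3, 12.0 and 17.4 in the wild-types. The knock-outs lay below the wild-types by a small margin (log2 fold change -0.50 ± 0.20, adjusted p = 0.396, limma; exact permutation p = 0.1). Cd79a, a B cell receptor gene, stood at 1.66, 0.80 and 5.46 FPKM in the knock-outs and 10.9, 2.0 and 4.75 in the wild-types.

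Counted together, B4galnt2 alone had all knock-out libraries above the wild-types (1 of 10, against 7.13% of genes tested). Fut4, St6gal1 and B3gnt7 had all of them below (3 of 10, against 9.79%). Wild-type replicates 1 and 3 were both above the other 4 libraries in Fut4, St6gal1 and B3gnt7 (3 of 10, against 21.7% of genes tested). They were both below in Fut2, B4galnt1, B4galnt2, B3gnt6 and Gcnt3 (5 of 10, against 22.0%). The enzymes were chosen with earlier results of these data known, so these counts describe the list and do not test it. The median log2 fold change of the 10 was 0.10, with 6 positive, against -0.02 over all genes tested, of which 5073 of 11366 were positive. The sign of that median turned under 2 settings. It was -0.08 with 4 positive when libraries were centred on the epithelial markers, and -0.24 with 4 positive with the position score as a covariate. Over all 11366 genes the median was -0.21 with 2134 positive under the centring, so the members stayed above it. With the covariate it was -0.04 with 4454 positive.

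**Figure D2:**
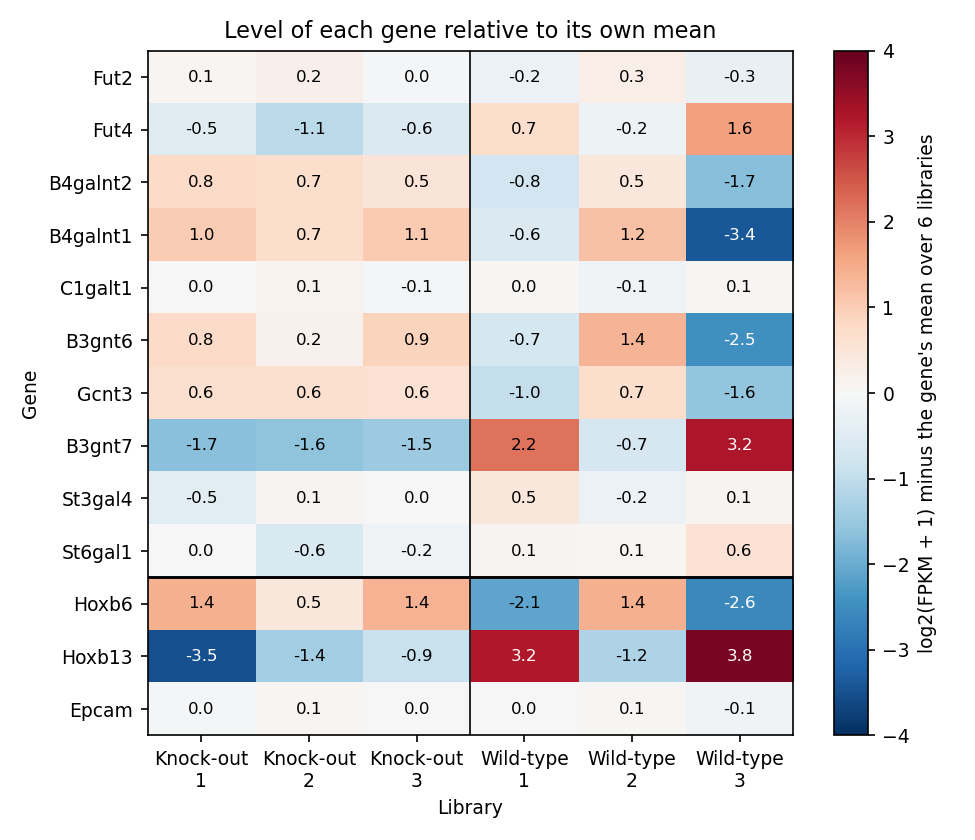
Each cell gives log2(FPKM + 1) of a gene in a library minus that gene's mean over the 6 libraries, for the 10 enzymes and, below the line, Hoxb6, Hoxb13 and the epithelial marker Epcam. Wild-type replicates 1 and 3 stand apart in the rows of B3gnt7, Fut4, B4galnt2, B4galnt1, B3gnt6 and Gcnt3 as they do in the HOX rows, while C1galt1 and Epcam are nearly flat.

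What passed depended on wild-type replicate 2. Without it, 4 of the 10 enzymes were called higher in knock-out colon (9.21% of 11344 genes were) and 2 lower (7.19% were). Higher were B4galnt2 (1.90 ± 0.26, adjusted p = 0.00664, limma), Gcnt3 (1.90, adjusted p = 0.00229), B4galnt1 (2.91, adjusted p = 0.0399) and B3gnt6 (2.19, adjusted p = 0.0289). Lower were B3gnt7 (-4.28, adjusted p = 0.00128) and Fut4 (-1.89, adjusted p = 0.00997). Fut2 (0.35, adjusted p = 0.0506), St6gal1 (-0.58, adjusted p = 0.120), St3gal4 (-0.39, adjusted p = 0.240) and C1galt1 (-0.04, adjusted p = 0.833) did not pass. The 2 wild-type libraries left in that fit are those with negative position scores, so genotype and position score cannot be told apart in it.

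With the position score as a covariate in the fit of all 6 libraries, limma called 0 of the 10 enzymes and 0 of 11366 genes (0%), with 2 of the 10 and 426 of all genes (3.75%) at an unadjusted p under 0.05. The lowest adjusted p of the 10 was 0.989. That fit rests largely on wild-type replicate 2, the only wild-type library with a score in the knock-out range. Gcnt3 then stood at 0.00 ± 0.18 and B4galnt2 at 0.19 ± 0.18. B4galnt1 (-0.47 ± 0.53) and B3gnt6 (-0.84 ± 0.29) turned negative, as did Fut2 (-0.15 ± 0.13). B3gnt7 (-1.03 ± 0.27) and Fut4 (-0.54 ± 0.33) stayed negative at smaller sizes.

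**Figure D3:**
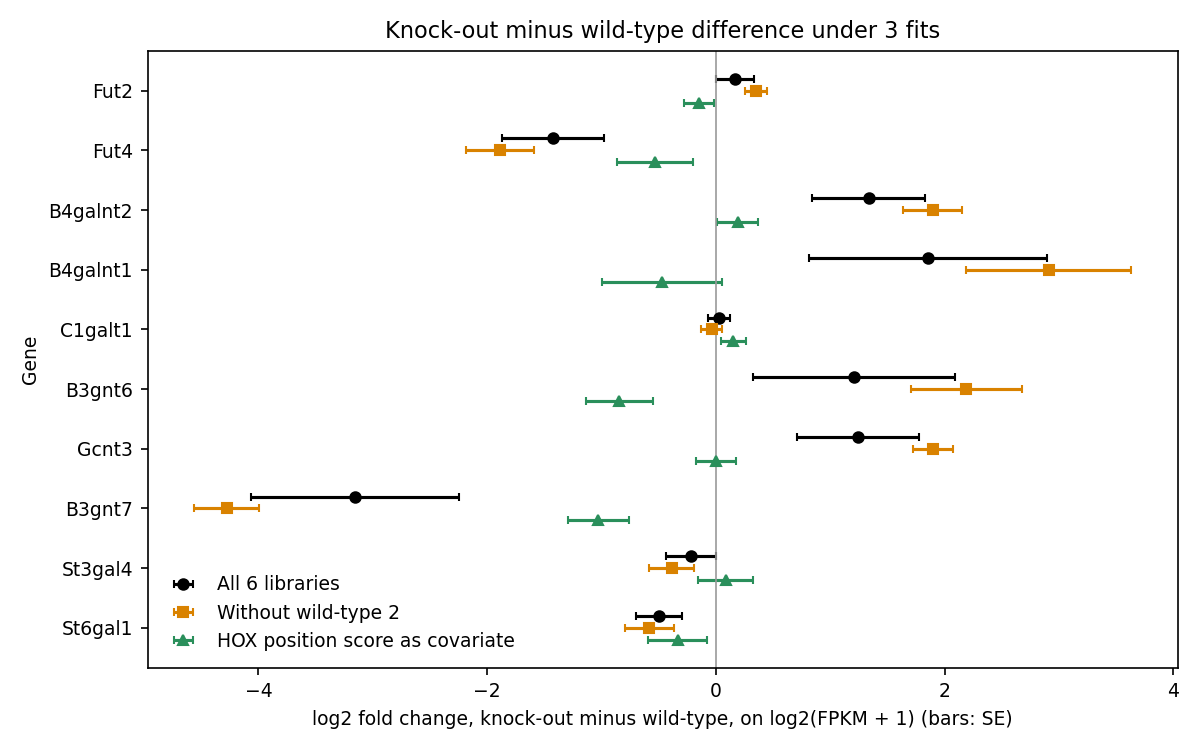
Log2 fold change of each enzyme, knock-out minus wild-type on log2(FPKM + 1), with SE bars, in the fit of all 6 libraries (black), without wild-type replicate 2 (orange) and with the HOX position score as a covariate (green). For B3gnt7 the 3 values are -3.16, -4.28 and -1.03, and for Gcnt3 they are 1.24, 1.90 and 0.00.

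Because FPKM are scaled by transcript length, levels of different enzymes can be set side by side. By median over the 6 libraries the order was B4galnt2 (264 FPKM), St3gal4 (198), Gcnt3 (131), Fut2 (67.6), B4galnt1 (67.5), C1galt1 (40.1), B3gnt7 (12.9), St6gal1 (11.7), Fut4 (10.4) and B3gnt6 (9.38). In none of the 9 neighbouring pairs did the levels differ at an adjusted p under 0.05 (exact two-sided sign-flip permutation test over 6 libraries, whose smallest p is 0.0312). St3gal4 was above Gcnt3 in 6 of 6 libraries, the only pair at that smallest p (adjusted p = 0.281 over the 9 pairs, exact permutation test). A pair alone at the smallest p cannot go below this adjusted value, so the adjusted p does not show that neighbours had equal levels. Neighbours were set by the medians of these same libraries, so the pairs compared were close in rank by choice. Against the median order, the mean log2 difference was negative for B4galnt2 minus St3gal4 (-0.02), B4galnt1 minus C1galt1 (-0.11) and St6gal1 minus Fut4 (-0.22). Fut4 was above B3gnt6 in 2 of 6 libraries. The order itself differed between libraries. B4galnt2 ranked first in the 3 knock-outs and in wild-type replicate 2, St3gal4 in wild-type replicate 1 and B3gnt7 in wild-type replicate 3. In the knock-outs and wild-type replicate 2, B3gnt7 ranked 10, 7, 9 and 8.

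The balance between enzymes was compared in 7 pairs, as the difference in log2(FPKM + 1) within each library. None passed after adjustment over the 7 pairs, and with 3 against 3 libraries the smallest exact permutation p of 0.1 could not. Fut2 exceeded Fut4 in all 6 libraries, by 2.81, 3.51 and 2.75 in the knock-outs and by 1.28, 2.71 and 0.28 in the wild-types. The groups do not overlap, although wild-type replicate 2 was just below the lowest knock-out (difference of means 1.60, exact permutation p = 0.1, adjusted p = 0.350). B4galnt2 exceeded Fut2 by 2.18, 1.98 and 2.05 in the knock-outs and by 0.96, 1.66 and 0.08 in the wild-types. Here too the groups do not overlap (difference of means 1.17, exact permutation p = 0.1, adjusted p = 0.350).

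In the other 5 pairs the groups overlap. The core 3 enzyme B3gnt6 was below the core 1 enzyme C1galt1 in all 6 libraries, with an FPKM ratio of 0.167 to 0.337 among knock-out libraries and of 0.0850, 0.499 and 0.00828 in wild-type replicates 1, 2 and 3 (exact permutation p = 0.4 on the log2 difference). Gcnt3 exceeded C1galt1 in 5 libraries, by a ratio of 3.04 to 3.48 in the knock-outs and 3.85 in wild-type replicate 2. In wild-type replicates 1 and 3 the ratio was 1.05 and 0.673 (exact permutation p = 0.4). B3gnt7 and B3gnt6 were close in the 3 knock-outs and wild-type replicate 2 (ratios of 0.677 to 1.11) and far apart in the other wild-type libraries (35.8 and 765) (exact permutation p = 0.2). B4galnt2 exceeded B4galnt1 in all 6 libraries, by log2 differences of 1.61 to 4.02 (exact permutation p = 0.8). St3gal4 exceeded St6gal1 in all 6, by 3.47 to 4.66 (exact permutation p = 0.7).

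**Figure D4:**
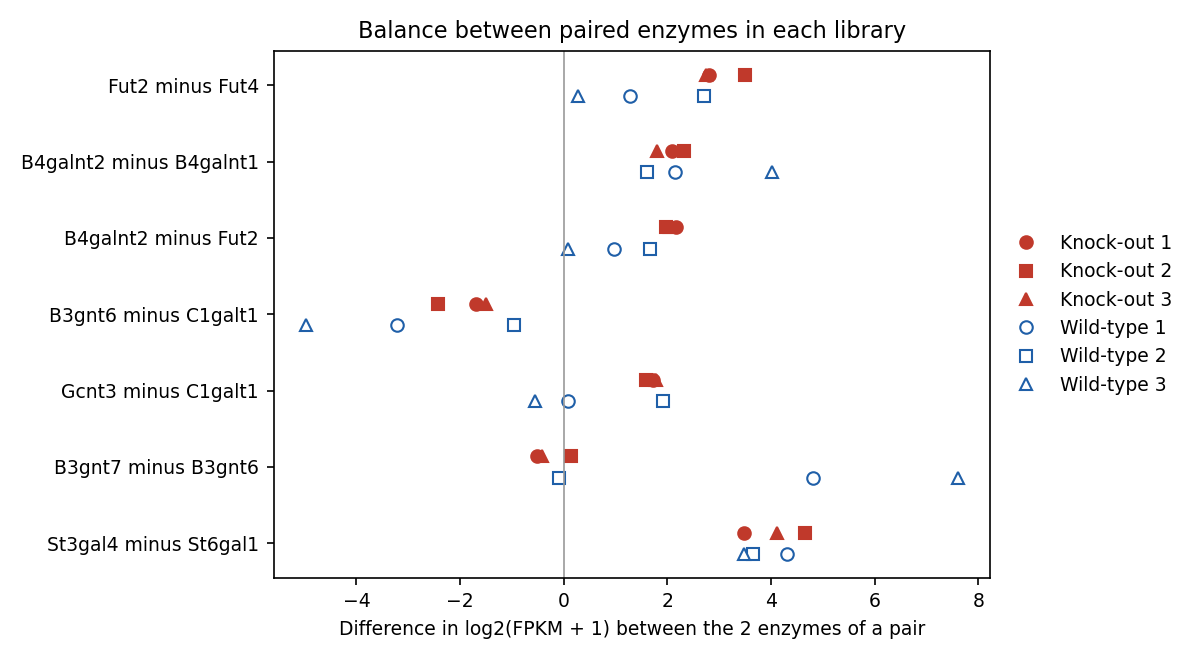
Difference in log2(FPKM + 1) between the enzymes of each of 7 pairs in each library; filled red symbols are knock-out and open blue symbols wild-type libraries, and the vertical line marks equal levels. Wild-type replicate 2 sits beside the knock-outs in B3gnt7 minus B3gnt6, where wild-type replicates 1 and 3 reach 4.81 and 7.61.

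Other genes of the same pathways were taken in 6 lists, of which 64 genes were tested. In limma 0 of the 64 passed with all 6 libraries. Without wild-type replicate 2, 12 were called higher and 14 lower, in a fit that called 9.21% of all genes higher and 7.19% lower. Signs within the lists are set against 5073 positive of 11366 genes tested with all 6 libraries. Among other sialylation genes, 9 of 13 were negative (median -0.17). At an unadjusted p under 0.05 in limma were 5 of the 13, against 12.5% of all genes tested. These were led by Nans and Gne, enzymes of sialic acid synthesis, and St6galnac4. Nans stood at 106, 95.4 and 118 FPKM in the knock-outs and 192, 140 and 252 in the wild-types (log2 fold change -0.83, adjusted p = 0.396, limma). Gne stood at 58.6, 59.2 and 72.4 against 87.5, 76.2 and 108 FPKM. St6galnac4 stood at 3.07, 3.66 and 3.89 against 8.04, 3.86 and 9.90 FPKM. In Nans and Gne the knock-outs lay below all wild-types, and without wild-type replicate 2 all 3 were called lower (adjusted p = 0.00683, 0.0271 and 0.00489 in the order named, limma). That fit called 5 genes of the list lower and 3 higher. The others lower were the sialyltransferases St3gal6 (-2.25) and St8sia5 (-4.15), and those higher were St3gal1 (2.76, adjusted p = 0.0378, limma), St6galnac2 (0.49, adjusted p = 0.0448) and Cmah (0.92, adjusted p = 0.0278). These 5 were named after their values were seen.

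Among other fucosylation genes, 5 of 9 were negative (median -0.02). Fut8, which adds the core fucose of N-glycans, stood at 39.8, 30.3 and 35.0 FPKM in the knock-outs and 53.6, 40.2 and 55.9 in the wild-types (log2 fold change -0.49, adjusted p = 0.396, limma). It was the only 1 of the 9 called without wild-type replicate 2 (-0.64, adjusted p = 0.0179, limma). Tsta3, of GDP-fucose synthesis, stood at 0.12 and Fut11 at -0.15. Of the 10 tested genes that start O-glycans, 8 were positive (median 0.11), but 4 were with epithelial marker centring (median -0.08) and 3 with the position covariate (median -0.03). The median of all genes tested was -0.21 with that centring and -0.04 with that covariate. Galnt12 stood at 53.8, 50.3 and 46.4 FPKM in the knock-outs and 27.6, 51.1 and 20.2 in the wild-types, and Galnt4 and Galnt12 were called higher without wild-type replicate 2 (adjusted p = 0.0146 and 0.00626, limma). Galnt6 stood at 0.19.

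Other core and extension genes had 11 of 20 positive (median 0.01). Without wild-type replicate 2, 4 were called higher and 5 lower, in a fit that called 9.21% of all genes higher and 7.19% lower. Wild-type replicates 1 and 3 were both above the other libraries in 7 of the 20 and both below in 5 (21.7% and 22.0% of all genes tested). B3gnt5, which extends glycolipid chains, stood at 1.65, 2.04 and 2.17 FPKM in the knock-outs and 9.50, 3.14 and 21.2 in the wild-types. Gcnt4 stood at 4.39, 2.80 and 3.69 against 0.47, 3.24 and 0.25 FPKM, and Abo, the blood group transferase, at 0.95, 0.57 and 0.88 against 2.72, 1.09 and 8.35. The knock-outs lay below all wild-types in B3gnt5 and Abo and overlapped in Gcnt4.

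Of 8 sulfation genes, 5 were negative (median -0.10), and the enzymes Papss1 and Papss2, which make the sulfate donor, had opposite signs. Papss1 stood at 51.7, 53.5 and 55.1 FPKM in the knock-outs and 74.6, 58.9 and 88.3 in the wild-types. Papss2 stood at 223, 240 and 212 against 142, 210 and 120 FPKM. The groups overlap in neither (log2 fold change -0.44 and 0.55, adjusted p = 0.396 for each, limma). The sulfotransferase Chst4 stood at -0.40. Of the 4 mucins tested, which carry the O-glycans, the membrane mucin Muc1 stood at 1.07, 1.13 and 1.95 FPKM in the knock-outs and 8.02, 2.75 and 17.3 in the wild-types. Muc4 stood at 22.9, 24.9 and 18.5 against 7.52, 19.2 and 6.63 FPKM. Muc2, the secreted goblet cell mucin, stood at 1176, 645 and 1089 against 475, 1336 and 438 FPKM. Its 2 low wild-type libraries, replicates 1 and 3, are the same that were low in B3gnt6 and Gcnt3. They were low in the goblet marker Spdef as well (18.0 and 15.3 FPKM against 34.3 to 59.5 in the knock-outs and 70.6 in wild-type replicate 2). Both also lay below the other 4 libraries in Fut2, B4galnt1 and B4galnt2, and in 22.0% of all genes tested. The goblet markers Tff3 (1779 and 2537 FPKM), Clca1 (1392 and 1619), Zg16 (4331 and 5272) and Fcgbp (351 and 587) were higher there than in the other 4 libraries, and Agr2 (706 and 745) was not.

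**Figure D5:**
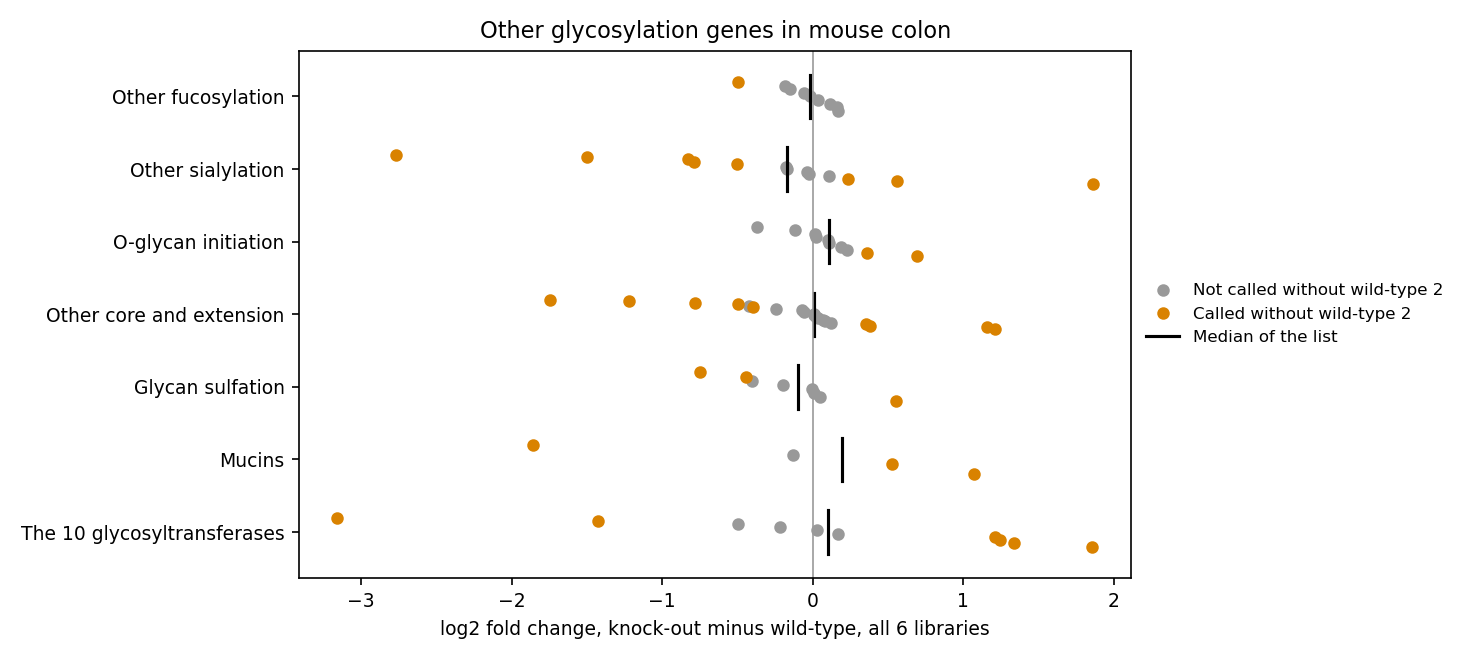
Log2 fold change, knock-out minus wild-type over all 6 libraries, of each tested gene in 6 lists of glycosylation genes and of the 10 glycosyltransferases; orange points are genes called without wild-type replicate 2 and black bars are list medians. Medians lie between -0.17 and 0.20, and B3gnt7 at -3.16 is the lowest point.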

How the data were processed

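The mouse colon values are FPKM as the authors deposited them, printed to 2 decimals, per the file headers. Tools named in the submitters' processing notes are edgeR, HTSeq, HISAT and Bowtie2, with no version or role, and the only build named is the human hg19; a mouse build is not given in the sources used here. FPKM summed to between 491900 and 507206 per library. Read depth is unknown, so no counting intervals can be given.

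Values were taken as log2(FPKM + 1), so fold changes of low genes are understated. Genes with a mean of at least 1 FPKM entered limma 3.58.1 (R 4.3.3; variance trend, Benjamini-Hochberg adjustment over all genes tested, threshold 0.05), after the procedure was tested on simulated data. The simulated noise was independent between genes and of equal spread in both groups. It therefore does not cover libraries that stand apart in many genes at once. Pairs of enzymes were compared by exact two-sided permutation tests. Named genes were the 10 enzymes and, of each pathway list, the 3 with the lowest unadjusted p; other names stand beside a result as markers. The enzymes and lists were chosen with earlier results of these data known. The alternatives were other pseudocounts, minimums, scalings, robust variance, a replicate block, a position covariate and the removal of each library. No sequences or positions are given, because no mouse reference was used here.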

Additional observations from a re-analysis of the deposited data

How the results depend on the processing

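No enzyme passed in limma under any alternative with all 6 libraries, or when a library other than wild-type replicate 2 was left out. Without 1 library, the genes called ranged from 0 to 1861, the enzymes called from 0 to 6 and the other glycosylation genes called from 0 to 26, the upper value each time without wild-type replicate 2. With each library centred on the epithelial markers, 1 gene was called, 5730507C01Rik, named after its values were seen. That centring moved the median of all genes from -0.02 to -0.21. Relative to this median Fut2 (-0.0125) and C1galt1 (-0.16) remained above 0, though their own signs turned. With the position covariate the sign turned in Fut2 (-0.15), B4galnt1 (-0.47), B3gnt6 (-0.84) and St3gal4 (0.0851). Leaving out 1 library gave C1galt1 between -0.0357 and 0.0778, B4galnt2 minus B4galnt1 between -1.01 and 0.20, turning without wild-type replicate 3, and St3gal4 minus St6gal1 between -0.0130 and 0.58, turning without knock-out replicate 2. The cause was not tested. Without wild-type replicate 3, B3gnt7 was at -2.34, B4galnt2 at 0.82, B4galnt1 at 0.62, B3gnt6 at 0.28, Gcnt3 at 0.76, Fut2 at 0.0617, Fut2 minus Fut4 at 1.02, B4galnt2 minus Fut2 at 0.76, B3gnt6 minus C1galt1 at 0.22, Gcnt3 minus C1galt1 at 0.70 and B3gnt7 minus B3gnt6 at -2.62. St3gal4 was at -0.0411 without knock-out replicate 1 and -0.0458 without wild-type replicate 1, and St6gal1 at -0.32 without knock-out replicate 2. Among the lists, centring on epithelial markers left 0 of 9 fucosylation genes, 4 of 20 core and extension genes and 1 of 8 sulfation genes positive, and the mucin median turned to -0.17 with the position covariate. Deviations of same-numbered libraries from their group means had correlations of -0.453, -0.137 and 0.151 over 11366 genes. With 3 libraries per group these values cannot exclude a pairing by replicate number. With the replicate block 0 genes were called and B3gnt7 had an adjusted p of 0.453. The order of levels gave 0 passing pairs in each setting, which 5 libraries could not change by construction. FPKM without counts leave the precision of low values, such as B3gnt6 at 0.34, unknown.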

Other observations

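For the 3 enzymes with the widest range, the genes with the nearest pattern over the 6 libraries were listed from 8059 genes with a mean of at least 5 FPKM, by the root-mean-square distance between log2(FPKM + 1) profiles centred on each gene's mean. This is a description with no test, and 6 libraries in which replicates 1 and 3 of the wild-type stand apart give many genes a like pattern. Nearest to B3gnt7 were Reg4, a lectin gene of secretory cells (distance 0.29), the sialyltransferase St8sia5 (0.34) and Cyp2f2 (0.37). Reg4 stood at 10.3, 5.61 and 8.34 FPKM in the knock-outs and 109, 11.9 and 196 in the wild-types. St8sia5, which acts on gangliosides, was at 13.2 and 23.4 FPKM in wild-type replicates 1 and 3 and at most 0.06 in the other 4 libraries.

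Nearest to B4galnt1 was Isx, an intestinal homeobox gene, at 156, 128 and 158 FPKM in the knock-outs and 48.2, 139 and 5.30 in the wild-types (distance 0.13). Tmigd1 (0.21) and Adra2a (0.22) followed. Nearest to B3gnt6 were Oas2 (0.25), an interferon-stimulated gene, Sct (0.37), which encodes the hormone secretin, and Oas3 (0.37), another interferon-stimulated gene. Oas2 stood at 16.8, 10.9 and 13.9 FPKM in the knock-outs and 4.20, 18.0 and 1.2 in the wild-types.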
